A study of Mus musculus with 6 samples.

Results

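Hepcidin and the main iron handling genes of the liver were described in RNA-seq gene counts from livers of C57BL6 mice aged 3 months. The 10 genes, of 43346 gene IDs counted, were chosen by symbol: Hamp, Hfe, Tfr2, Tfrc, Trf, Slc39a14, Fth1, Ftl1, Slc40a1 and Cp. All were found, and all 10 passed the filter on low counts. There were 3 libraries labelled DKO, a double knockout of β-catenin (Ctnnb1) and γ-catenin (Jup) specific to hepatocytes, and 3 Control libraries, numbered 1 to 3 in each group. The labels name neither the Cre line nor the genotype of the Control animals beyond that word, and do not state whether the libraries are from different animals. The p-values therefore rest on the spread among these libraries, which may be technical. The comparison asks what becomes of liver transcripts when hepatocytes lose both catenins.

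The liver sets the iron level of the whole body. Hepatocytes secrete hepcidin, the peptide product of Hamp, which binds the iron exporter ferroportin (Slc40a1) on macrophages, enterocytes and hepatocytes and has it degraded, so that less iron reaches the plasma. Hamp transcription follows BMP ligands through SMAD proteins, with HFE, transferrin receptor 2 and haemojuvelin as part of the iron sensor, and follows interleukin 6 through STAT3 in inflammation. Plasma iron travels on transferrin, and iron kept in cells sits in ferritin, a shell of heavy and light chains.

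Hamp has a near copy in the mouse, Hamp2, and the RefSeq promoter windows (250 bases before the start, build GRCm38.p6, minus strand) are shown because they differ in one of the sites by which hepcidin is known to be regulated. Capitals mark GGCGCC, the core of the BMP-responsive element, and TTCNNNGAA, the form of a STAT site; both read the same on either strand and do not overlap here. The windows lie at chr7:30944030-30944279 for Hamp and chr7:30924182-30924431 for Hamp2.
Hamp: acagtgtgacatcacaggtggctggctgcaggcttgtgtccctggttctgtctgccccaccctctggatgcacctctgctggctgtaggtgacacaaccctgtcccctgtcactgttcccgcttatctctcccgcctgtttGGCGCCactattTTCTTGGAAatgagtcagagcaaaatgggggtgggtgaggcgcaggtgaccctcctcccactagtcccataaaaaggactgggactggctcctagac
Hamp2: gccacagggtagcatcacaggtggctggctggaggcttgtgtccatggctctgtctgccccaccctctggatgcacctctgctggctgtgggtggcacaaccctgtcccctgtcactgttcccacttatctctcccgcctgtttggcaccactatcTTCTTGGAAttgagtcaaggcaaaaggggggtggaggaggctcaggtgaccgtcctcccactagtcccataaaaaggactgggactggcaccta

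GGCGCC began 109 bases before the Hamp start and was not in the Hamp2 window, while TTCNNNGAA began 97 bases before the Hamp start and 94 before that of Hamp2. Of 32851 promoter windows of this length, 9.59% held GGCGCC, 7.02% held TTCNNNGAA and 0.368% held both. Of the 10 genes 7 had RefSeq promoter entries, 12 windows in all, and Hamp was the only one with both motifs. A match describes the letters and not the binding of a factor.

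Iron responsive elements, hairpins bound by the iron regulatory proteins when a cell lacks iron, were found in 4 of the 10 genes and are shown because they mark which transcripts are tied to the cell's own iron. In a 5′ UTR the bound protein holds back translation, and in the 3′ UTR of Tfrc it protects the mRNA from decay. The search took a bulged C, 5 paired bases on each side of the loop CAGTGN with N not G, and at least 4 of 6 pairs in the lower stem, on the sense strand of spliced UTRs. Capitals mark the loop.
Fth1, 5′ UTR: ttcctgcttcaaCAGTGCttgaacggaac
Ftl1, 5′ UTR: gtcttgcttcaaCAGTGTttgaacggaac
Slc40a1, 5′ UTR: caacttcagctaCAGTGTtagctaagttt
Tfrc, 3′ UTR, element 1: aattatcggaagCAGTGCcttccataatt
Tfrc, 3′ UTR, element 2: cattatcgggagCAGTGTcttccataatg
Tfrc, 3′ UTR, element 3: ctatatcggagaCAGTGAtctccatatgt
Tfrc, 3′ UTR, element 4: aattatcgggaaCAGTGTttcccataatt

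On mm10 these lie at chr19:9982732-9982760 (plus strand) for Fth1, chr7:45459779-45459807 (minus) for Ftl1 and chr1:45925465-45925493 (minus) for Slc40a1. The Tfrc elements, all on the plus strand, lie at chr16:32631219-32631247, chr16:32631598-32631626, chr16:32631663-32631691 and chr16:32631710-32631738. The form is rare: it was found in the 5′ UTR of 6 of 19826 genes (0.0303%) and in the 3′ UTR of 10 of 20578 genes (0.0486%).

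The DKO libraries held far fewer reads on genes than the Control libraries and little liver RNA. DKO replicates 1, 2 and 3 held 309731, 525037 and 1491237 gene reads, against 12320487 to 15869639 in Control. Albumin (Alb), the main secreted hepatocyte protein, took 0.0933%, 3.08% and 0.322% of gene reads in DKO replicates 1, 2 and 3, against 6.58% to 7.66% in Control, and mitochondrial transcripts took 62.7% in DKO replicate 3. The 8600 protein-coding genes nearly silent in Control had 1.35, 0.968 and 2.40 reads per exonic kb in DKO replicates 1, 2 and 3. They had 0.0878 to 0.157 in the much deeper Control libraries, a low value fixed by picking them for few Control reads. Any of them switched on in DKO would raise the DKO values, which serve as background below. Ctnnb1 had 0, 52 and 65 reads in DKO and 2650 to 2945 in Control, and Jup had 6, 1 and 11 in DKO and 196 to 339 in Control. Neither passed the threshold (adjusted p = 0.171 and 0.0847 in edgeR's quasi-likelihood test), so every direction below is one between libraries as labelled. Summed hepatocyte markers, 8 genes with none at 0 in any library, were at 2060 to 46500 unscaled CPM in DKO and 97200 to 111000 in Control. Markers of Kupffer cells, the liver macrophages that recycle red cell iron, summed to 51.7 to 128 unscaled CPM in DKO and 185 to 253 in Control (8 genes, 0 called in edgeR; Clec4f, Vsig4, Marco and Folr2 had no reads in DKO replicate 1). Erythroid markers summed to 174 to 600 in DKO and 274 to 290 in Control, endothelial ones to 166 to 839 and 203 to 382, and stellate ones to 181 to 552 and 249 to 409. Bile duct markers summed to 172 to 449 in DKO and 73.2 to 101 in Control, with 4 of 7 tested ones called higher and 1 lower. Of 8 endothelial markers 1 was called higher and 2 lower, of 8 stellate ones 0 and 1, and of 8 hepatocyte and 5 tested erythroid ones none either way. In bulk tissue fewer cells of a type and less RNA per cell cannot be told apart, and the part of cell make-up in the results below was not tested.

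In Control livers the 10 genes covered a wide range of length-scaled levels (TPM, reads per kb of transcript scaled to the same total in each library). The light ferritin chain Ftl1 was highest, at 3830 ± 217 TPM (SD, n = 3), with a rank of 30 to 33 among all genes in the Control libraries. Hamp followed at 1470 ± 222 TPM and the heavy chain Fth1 at 1310 ± 95.2, and these neighbours overlapped. The iron carrier Trf, at 418 ± 13.6 TPM, and Cp, the plasma ferroxidase ceruloplasmin, at 378 ± 82.6, overlapped as well. Tfr2, the receptor that senses iron-loaded transferrin on hepatocytes, stood at 180 ± 6.65 TPM. The zinc and iron importer Slc39a14 stood at 66.1 ± 2.46 TPM, the exporter Slc40a1 at 53.6 ± 6.97, Hfe at 14.4 ± 2.19 and the uptake receptor Tfrc at 6.92 ± 0.665. Apart from the 2 overlapping pairs, each gene's lowest Control library was above the next gene's highest. Tfrc was thus the lowest of the set, while Tfr2, its relative, was higher in every Control library.

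**Figure D1:**
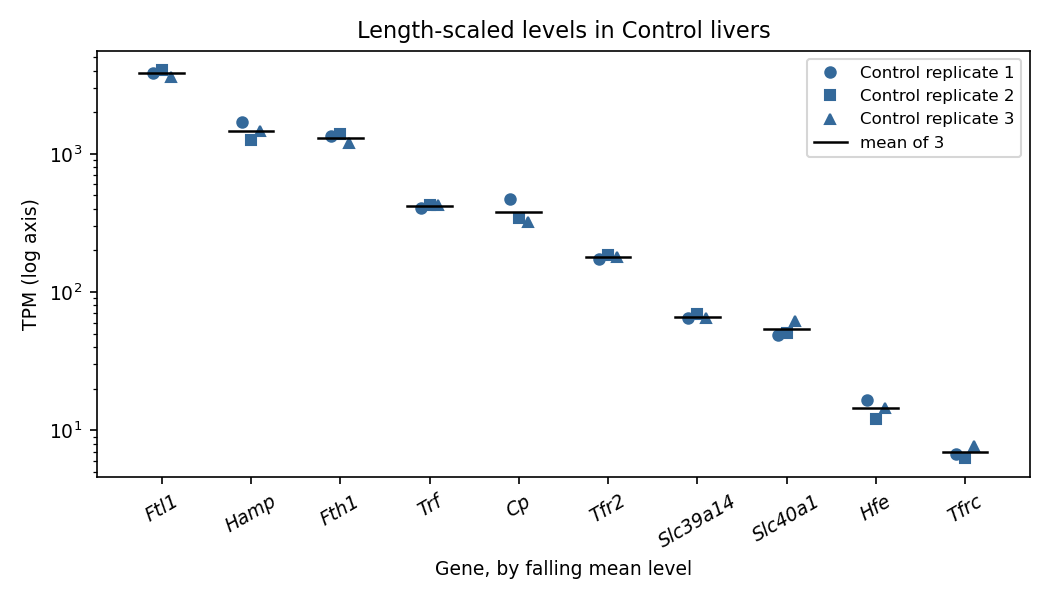
Length-scaled levels of the 10 genes in the 3 Control libraries, in TPM on a log axis, with genes ordered by their mean (bar). Ftl1 was at 3590 to 4030, and Tfrc at 6.34 to 7.64.

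Control replicate 1 stood above the other Control libraries for Cp and, by less, for Hamp and Hfe. Cp was at 1141 unscaled CPM there and at 847 and 810 in Control replicates 2 and 3, and Hamp was at 416, 317 and 378. Hfe, at 35.2, 26.7 and 32.5, was also highest in Control replicate 1. Of 4 BMP target genes picked after their values were seen, 3 were highest there: Id1 at 18.4, 6.38 and 5.93 unscaled CPM, Atoh8 at 24.3, 11.97 and 7.71, and Smad6 at 4.54, 1.94 and 1.46. The other, Smad7, was at 8.63, 8.82 and 7.22. Endothelial markers were at 382 unscaled CPM in Control replicate 1 and at 203 and 205 in Control replicates 2 and 3, and stellate markers at 409, 249 and 264. The part of these cells in the higher values was not tested. Alas1, the first enzyme of haem synthesis, went the other way, at 108, 724 and 673 unscaled CPM. Among the 10 genes the highest Control library was 1.09 to 1.41 times the lowest.

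Of the 10 genes, 1 passed the threshold between DKO and Control: Hfe was lower. Over all 15561 genes tested, edgeR called 12.8% lower and 31.3% higher in DKO. Among the 5262 genes with at least the Control level of the lowest of the 10 genes (26.1 CPM), it called 22.4% lower and 1.01% higher, so 1 of 10 lower and 0 of 10 higher is not above the background. In 9 of the 10 genes every DKO library was below every Control library in TMM-scaled CPM, which held for 36.4% of all genes tested and for 73.0% of those 5262. The exception was Tfrc. The count of called genes depended on the libraries and the tool. Without DKO replicate 1, 5 of the 10 were lower (Hfe, Slc39a14, Tfr2, Hamp and Ftl1), where 22.0% of all genes were called lower and 33.5% higher. Without DKO replicate 2, 6 were lower (Cp, Hfe, Slc39a14, Tfr2, Trf and Ftl1), against 26.7% of all genes lower and 31.1% higher. DESeq2 called 8 lower, all but Tfrc and Slc40a1, against 17.9% of all genes lower and 38.1% higher. For these alternatives no share was taken at the level of the 10 genes, where the main test called more genes lower (22.4% against 12.8%). The counts are therefore not read as an excess among the 10 genes. With DKO replicate 2 as the one DKO library, assumed to vary like the others, the same 8 were lower, against 28.6% of all genes lower and 25.3% higher. The median log2 fold change of the 10 genes was -2.09, against -0.09 over all tested genes, most of which are read less than these 10. Among genes with at least 50 CPM in Control, fitted alone, the median was -0.07 for the 8 of the 10 that were left and -0.15 for all. With background reads subtracted it was -1.75 for the 10 genes and -1.20 for all. Scaling on 160 abundant liver genes in place of TMM shifted the median of all genes by 4.82 on the log2 scale and turned 9 of the 10 genes positive, so directions below hold for TMM scaling.

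**Figure D2:**
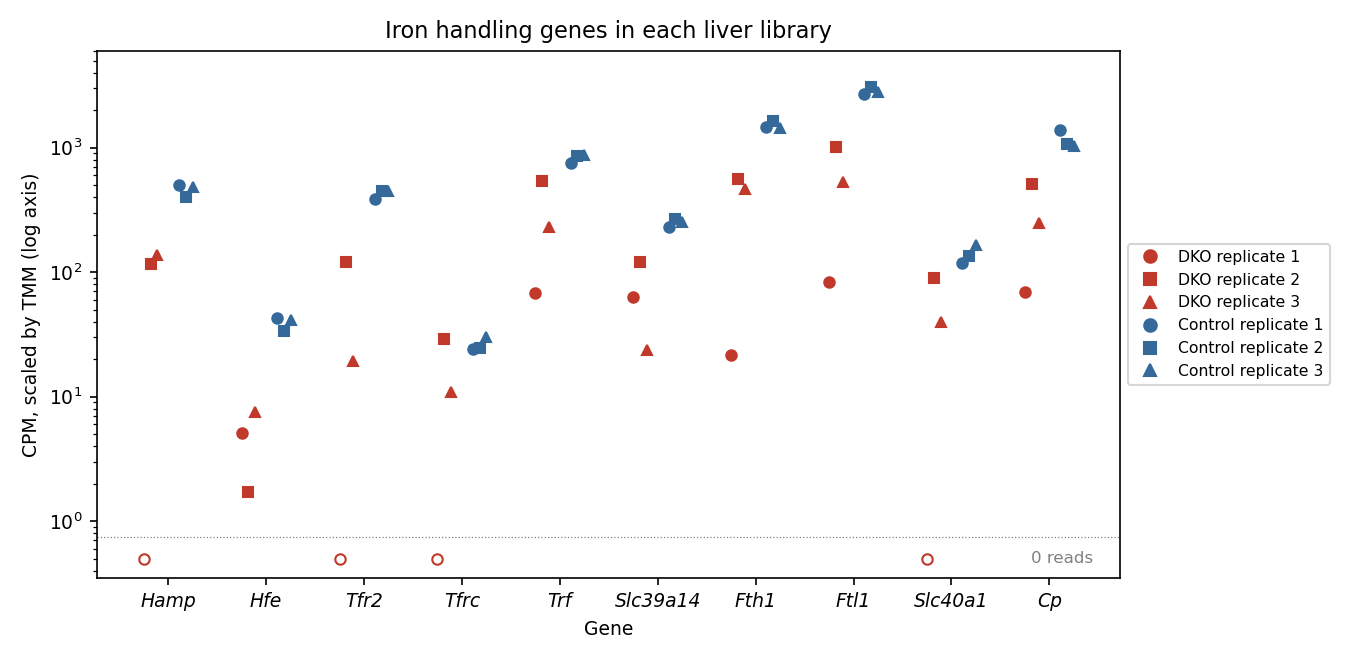
TMM-scaled CPM of each gene in each library on a log axis, DKO left of Control, with symbols for the replicate number and open symbols for 0 reads. Every DKO library lies below every Control library except for Tfrc, where DKO replicate 2 (29.2 CPM) lies between Control replicates 2 (24.3) and 3 (29.9).

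Hamp (ENSMUSG00000050440, chromosome 7, 30942368 to 30944032, minus strand) had 0, 68 and 127 reads in DKO replicates 1, 2 and 3, against 6608, 4419 and 4651 in Control replicates 1, 2 and 3. That was 0, 117 and 137 CPM in DKO and 504, 403 and 483 CPM in Control. The groups did not overlap, and the DKO libraries with Hamp reads lay close together on this TMM scale. In DKO replicates 2 and 3 Hamp was at 129.5 and 85.2 unscaled CPM, and at 4.21 and 26.4 reads per 1000 Alb reads. The log2 fold change was -2.45 (SE 1.45, adjusted p = 0.182). Without DKO replicate 1 the adjusted p was 0.0139, and it ranged from 0.0130 to 0.816 over the alternatives with more than 1 DKO library. A count of 0 in DKO replicate 1 allows up to 9.69 unscaled CPM, against 317 to 416 in Control. Hamp2 (ENSMUSG00000056978, chromosome 7, 30922372 to 30924681) had 0, 10 and 6 reads in DKO and 509, 441 and 412 in Control, the log2 fold change being -2.43 (SE 0.94, adjusted p = 0.0614). It passed the threshold in 8 of 16 alternatives, each time lower, among them DESeq2 (adjusted p = 0.00413), without DKO replicate 1 (0.0109) and without mitochondrial genes (0.0473). Hamp gave 6.80 and 21.2 reads per Hamp2 read in DKO replicates 2 and 3, and 10 to 13 in Control, so the DKO values lay on either side of the Control range. The copies are alike enough that reads aligning to both may be missing from either count.

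The sensors and receptors of transferrin iron came next in the order of roles. Hfe (ENSMUSG00000006611, chromosome 13, 23702034 to 23710854, minus strand) encodes the haemochromatosis protein, which takes part in the iron sensor upstream of hepcidin. It had 4, 1 and 7 reads in DKO replicates 1, 2 and 3, against 559, 372 and 400 in Control, or 5.09, 1.72 and 7.57 CPM in DKO and 42.7, 33.9 and 41.6 CPM in Control. The highest DKO library was far below the lowest Control library, and Hfe fell by 2.97 on the log2 scale (SE 0.69, adjusted p = 0.00647 in edgeR). Background alone would give 4.80, 3.46 and 8.56 reads in the DKO libraries, so Hfe reads were not above background in any of them at this depth. The call held in 15 of 16 alternatives and was lost on the abundant-gene scale, where the log2 fold change was 2.37 (adjusted p = 0.170).

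Tfr2 (ENSMUSG00000029716, chromosome 5, 137569840 to 137587481, plus strand) had 0, 70 and 18 reads in DKO, against 5029, 4905 and 4277 in Control. On the CPM scale it was at 0, 120 and 19.5 in DKO and at 384, 447 and 444 in Control. The groups did not overlap, and DKO replicate 2 stood apart from the other DKO libraries. Background alone would give 5.83, 4.20 and 10.4 reads in the DKO libraries. In DKO replicate 2 its 16.1 reads per exonic kb were above the 95th percentile of the nearly silent genes, 5.64. In DKO replicate 3 its 4.15 were below that percentile, 11.7. At -3.20 (SE 1.49, adjusted p = 0.105) on the log2 scale, Tfr2 had the most negative value of the 10 genes without passing the threshold. It passed in 7 of 17 alternatives, among them without DKO replicate 1 (adjusted p = 0.0246), without DKO replicate 2 (0.0180), with DESeq2 (0.0104) and with DESeq2's size factors (0.0383).

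Tfrc (ENSMUSG00000022797, chromosome 16, 32608920 to 32632794, plus strand), the receptor by which most cells take up transferrin, had 0, 17 and 10 reads in DKO and 314, 267 and 288 in Control. That was 0, 29.2 and 10.8 CPM in DKO and 24.0, 24.3 and 29.9 CPM in Control, so the groups overlapped through DKO replicate 2. The log2 fold change was -1.01 (SE 0.98, adjusted p = 0.406). Background alone would give 8.32, 5.99 and 14.8 reads in the DKO libraries, which is more than DKO replicates 1 and 3 had. In DKO replicate 2 its 2.75 reads per exonic kb were above the mean of the nearly silent genes, 0.968, but below their 95th percentile, 5.64, so Tfrc was not clearly above background in any DKO library.

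The carrier and the importer had reads in every library. Trf (ENSMUSG00000032554, chromosome 9, 103204001 to 103230444, minus strand) had 53, 315 and 212 reads in DKO, against 9834, 9478 and 8387 in Control. In CPM this was 67.5, 542 and 229 in DKO and 751, 864 and 872 in Control, the log2 fold change being -1.57 (SE 1.11, adjusted p = 0.255). DKO replicate 2 came closest to the Control range. Exons of Gm20425, a gene on the same strand listed at 0 in every library, cover 2108 of the 3320 exonic bases of Trf, and reads on both genes may have been left uncounted.

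Slc39a14 (ENSMUSG00000022094, chromosome 14, 70303469 to 70351425, minus strand), the importer of iron not bound to transferrin, had 50, 70 and 22 reads in DKO and 3040, 2922 and 2443 in Control. Its CPM were 63.7, 120 and 23.8 in DKO and 232, 266 and 254 in Control, the log2 fold change being -1.86 (SE 0.86, adjusted p = 0.103). It was lowest in DKO replicate 3, where its 22 reads compared with 25.3 from background alone, and highest in DKO replicate 2. The adjusted p was 0.0483 without DKO replicate 1 and 0.0211 without DKO replicate 2.

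The ferritin chains, both with an iron responsive element in the 5′ UTR, had the most reads of the 10 genes in Control. Fth1 (ENSMUSG00000024661, chromosome 19, 9980598 to 9985098, plus strand) had 17, 328 and 433 reads in DKO, against 19098, 17844 and 13877 in Control. It was at 21.6, 564 and 469 CPM in DKO and at 1458, 1626 and 1442 in Control, the log2 fold change being -2.10 (SE 1.32, adjusted p = 0.206). On this TMM scale DKO replicate 1 was more than an order of magnitude below the other DKO libraries. Unscaled, Fth1 was at 54.9, 625 and 290 CPM in DKO replicates 1, 2 and 3. Per 1000 Alb reads it was at 58.8, 20.3 and 90.1, so the order of the DKO libraries depended on the scale.

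Ftl1 (ENSMUSG00000050708, chromosome 7, 45457944 to 45459884, minus strand) had 66, 589 and 487 reads in DKO and 35449, 33544 and 26810 in Control. Its CPM were 84.0, 1013 and 527 in DKO and 2706, 3057 and 2786 in Control, the log2 fold change being -2.40 (SE 1.31, adjusted p = 0.154). The processed copy Ftl1-ps1 had 1, 4 and 6 reads in DKO and 155, 167 and 136 in Control, and reads that fit several ferritin copies may be missing from the counts. Fth1 gave 25.8, 55.7 and 88.9 reads per 100 Ftl1 reads in DKO replicates 1, 2 and 3, against 53.9, 53.2 and 51.8 in Control. The ratio was thus close to Control in DKO replicate 2, lower in DKO replicate 1 and higher in DKO replicate 3.

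The exporter and the ferroxidase close the list. Slc40a1 (ENSMUSG00000025993, chromosome 1, 45908068 to 45926523, minus strand) had 0, 52 and 37 reads in DKO, against 1556, 1467 and 1598 in Control. It was at 0, 89.4 and 40.0 CPM in DKO and at 119, 134 and 166 in Control, the log2 fold change being -1.70 (SE 1.18, adjusted p = 0.246). Background alone would give 12.1, 8.71 and 21.6 reads in the DKO libraries. Slc40a1 is also a gene of Kupffer cells, whose markers summed to 51.7 to 128 unscaled CPM in DKO and 185 to 253 in Control, and their part in its level was not tested.

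Cp (ENSMUSG00000003617, chromosome 3, 19957054 to 20009145, plus strand) had 54, 295 and 231 reads in DKO and 18103, 11814 and 9977 in Control. Its CPM were 68.8, 507 and 250 in DKO and 1382, 1077 and 1037 in Control, the log2 fold change being -2.08 (SE 1.15, adjusted p = 0.157). Without DKO replicate 2 the adjusted p was 0.0381. Exons of Hps3 on the other strand overlap 108 of its bases, and Hps3 had 21, 9 and 16 reads in DKO and 166, 91 and 103 in Control. Across the 10 genes, 4 had no reads in DKO replicate 1 (Hamp, Tfr2, Tfrc and Slc40a1), and none was at 0 in DKO replicates 2 or 3.

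**Figure D3:**
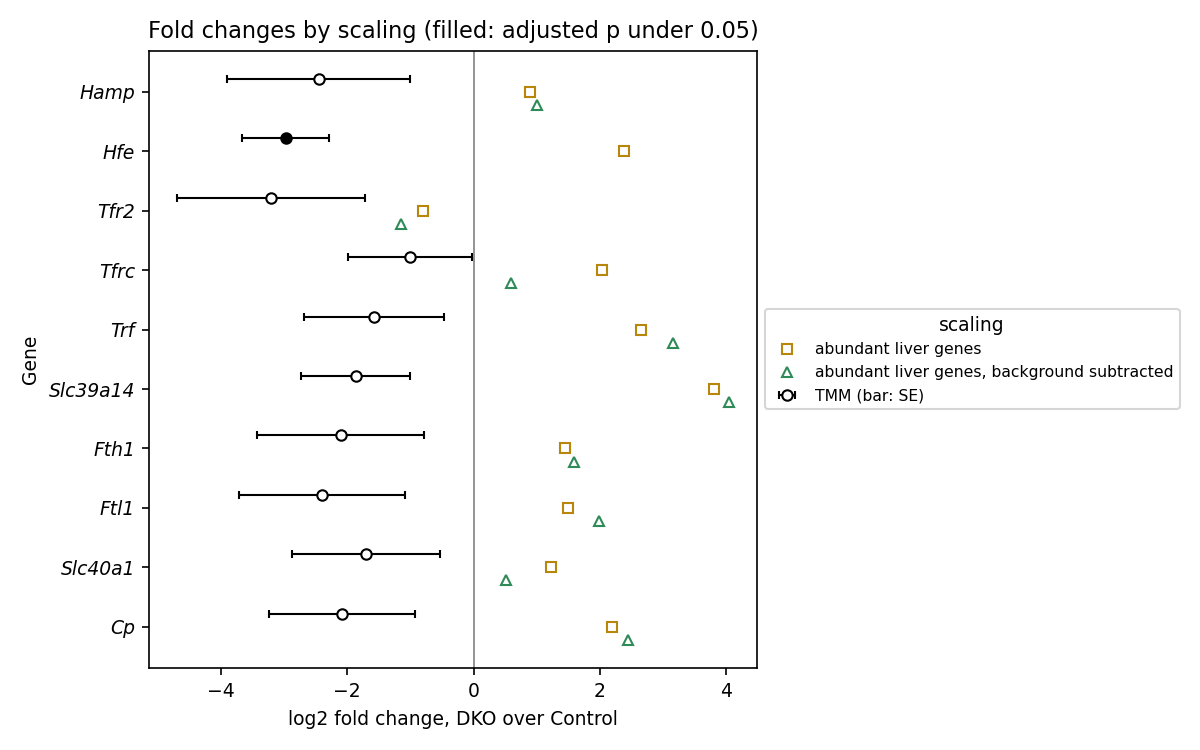
Log2 fold changes of DKO over Control for each gene with TMM (circle, bar: SE), with scaling on the abundant liver genes (square), and with that scaling after subtraction of background reads (triangle). Filled symbols passed an adjusted p of 0.05. With TMM all 10 values are negative, and on the abundant-gene scale 9 are positive. Hfe has no triangle because no DKO reads were left.

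Set against other liver transcripts of the same library, the 10 genes ran from 0.0859 to 1.81 times their expected reads in DKO replicate 2. The lowest was Hfe and the highest Trf. Over 1806 genes with at least 3000 Control counts, the 5th and 95th percentiles there were 0.464 and 2.00. For each library the reads of a gene were divided by those expected from the Control mean, scaled to the library by its abundant liver genes, plus background. In DKO replicate 2 the ratio was 0.997 for Ftl1 (589 reads, 590.7 expected) and 1.04 for Fth1 (328 and 316). It was 1.13 for Slc39a14, 1.16 for Cp, 1.40 for Slc40a1 and 1.5 for Tfrc, the last on 17 reads. Hamp was at 0.702 (68 reads, 96.9 expected) and Tfr2 at 0.764 (70 and 91.6). The Control libraries themselves ranged from 0.837 to 1.14 for Hamp and from 0.954 to 1.03 for Tfr2.

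Trf had 315 reads in DKO replicate 2 where 173.6 were expected, a ratio of 1.81, against 0.957 to 1.03 in Control. Of 1806 genes with at least 3000 Control counts, 6.92% had a ratio as high or higher in that library, whose 5th and 95th percentiles were 0.464 and 2.00. Hfe had 1 read where 11.7 were expected, a ratio of 0.0859, against 0.830 to 1.13 in Control, and 99.9% of the 1806 genes had a higher or equal ratio. All 1806 genes had more Control reads than Hfe, so their ratios carry less counting error than its own. Ctnnb1 itself was at 0.908 in DKO replicate 2 (52 reads, 57.3 expected), against 0.935 to 1.06 in Control. Jup, the other targeted gene, had 1 read there, where 4.95 were expected from liver RNA and 6.23 from background.

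In DKO replicate 3 the ratios spread more widely, as they did for genes at large, whose 5th and 95th percentiles there were 0.283 and 5.41. Hamp was at 4.79 (127 reads, 26.5 expected), Fth1 at 4.76, Trf at 4.0, Ftl1 at 3.06 and Cp at 2.63. Slc40a1 was at 1.27, while Hfe, Tfrc, Slc39a14 and Tfr2 were at 0.653, 0.616, 0.565 and 0.537. Hamp thus lay below its Control range in DKO replicate 2 and above it in DKO replicate 3. In DKO replicate 1 between 4.92 and 16.3 reads were expected for every gene of the set but Hamp, where 1.91 were, so its count of 0 says little about Hamp in the liver RNA of that library. Trf was above its Control range in all DKO libraries, at 7.73, 1.81 and 4.0, but 10.4% of the 1806 genes were at least as high in DKO replicate 3. No gene of the set was below its Control range in all of them except Hfe and Tfr2. The share of the 1806 genes above or below their Control range in all DKO libraries was not taken. Trf, Hfe and Tfr2 are therefore not read as standing out by this separation. Hfe was at 0.813, 0.0859 and 0.653, against 0.830 to 1.13 in Control, and Tfr2 at 0, 0.764 and 0.537, against 0.954 to 1.03. Of the 1806 genes 78.5% had a ratio at least as high as that of Tfr2 in DKO replicate 2 and 85.4% in DKO replicate 3, and 80.1% one at least as high as that of Hfe in DKO replicate 3, so apart from Hfe in DKO replicate 2 these values lie well within the spread of other genes. For both genes background made up most of the reads expected in DKO replicate 1.

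**Figure D4:**
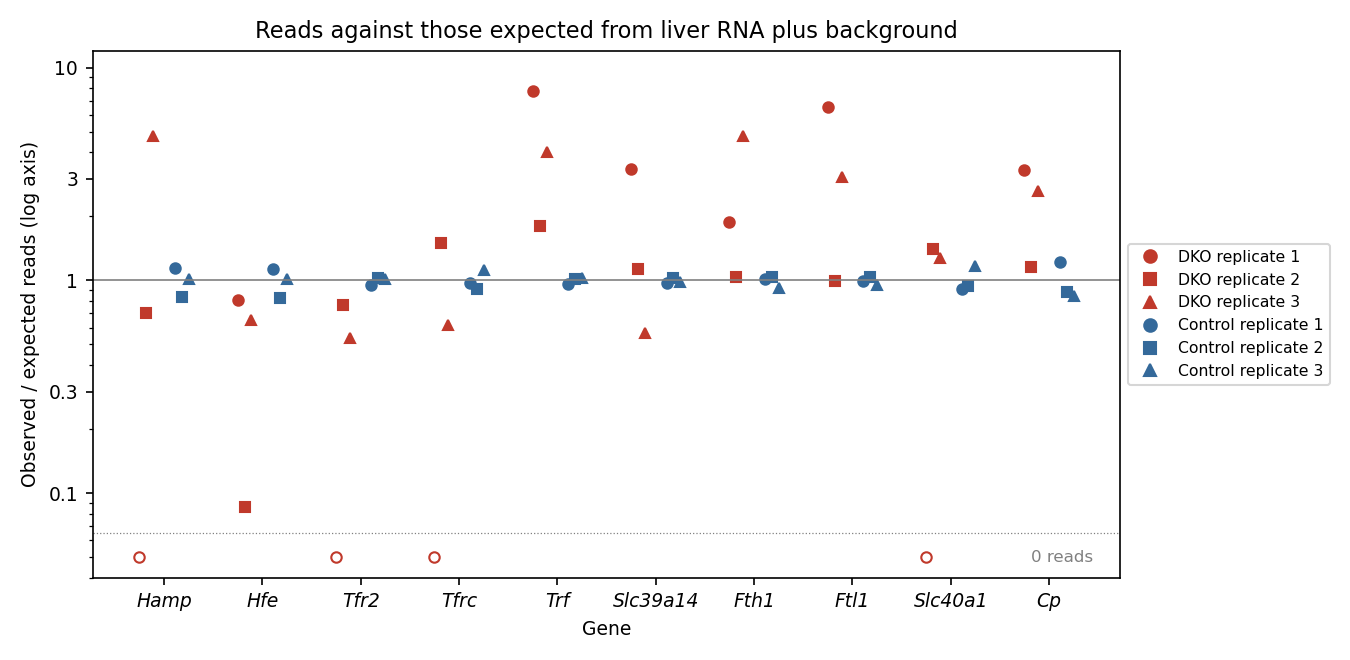
Reads observed divided by reads expected from liver RNA plus background, on a log axis, for each gene and library, DKO left of Control, with open symbols for 0 reads. Control libraries lie between 0.830 and 1.22. DKO replicate 2 lies nearest to them, with Trf at 1.81 and Hfe at 0.0859 farthest away.

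The wider iron pathway was followed through 71 other genes in 3 lists, regulators of hepcidin, genes of iron and haem transport and storage, and genes of iron sensing and use. Of 24 tested hepcidin regulators 2 were higher and 4 lower in DKO, with a median log2 fold change of -1.10. Transport and storage genes had 2 of 22 higher and 7 lower, with a median of -2.04, and sensing and use genes 0 of 19 higher and 4 lower, with a median of -2.14. Among the tested genes of these lists Il6 alone was at 0 in a whole group, and setting it at its bound did not move a median. Of the untested ones, Erfe had 0 reads in DKO and 6, 3 and 2 in Control, and Ftmt was at 0 in every library. The share lower, 16.7%, 31.8% and 21.1%, compares with 12.8% of all tested genes and with 22.4% of those at the level of the 10 genes or above. The share higher, 8.33%, 9.09% and 0%, compares with 31.3% and 1.01% in the same way. On the abundant-gene scale the medians were 4.78, 2.09 and 2.54, against 4.73 for all genes.

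**Figure D5:**
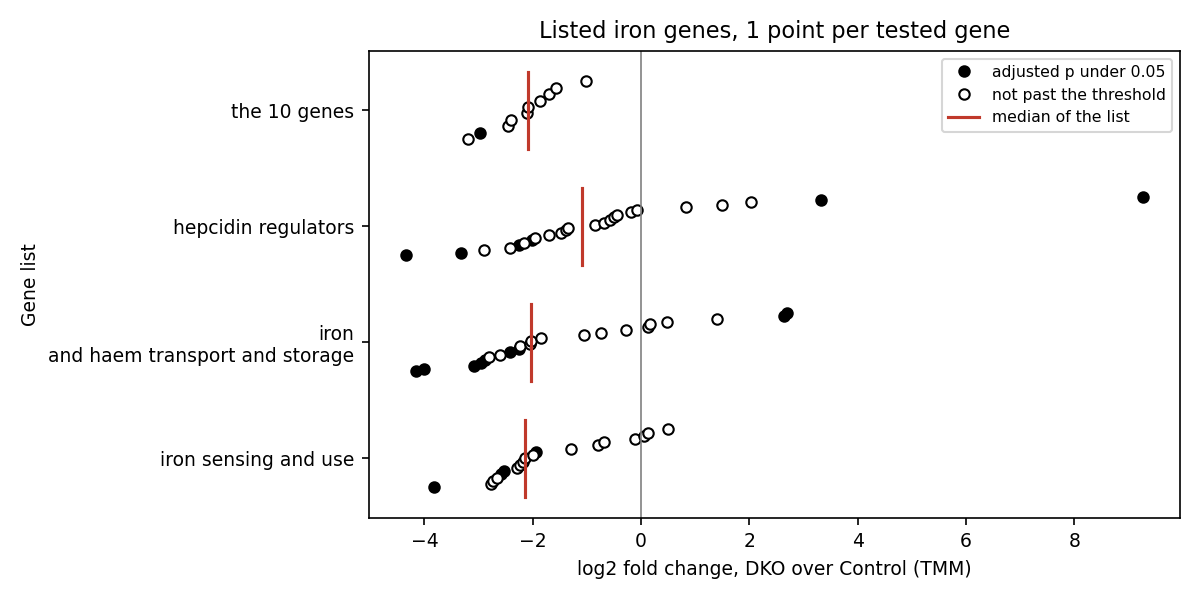
Log2 fold changes of DKO over Control (TMM) for every tested gene of the 10-gene set and the 3 other iron lists, with filled points past an adjusted p of 0.05 and the median as a line. Most points lie below 0, at medians of -2.09, -1.10, -2.04 and -2.14 from top to bottom. The point farthest to the right is Il6, which had no Control reads, so that its position depends on the fit.

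Among the hepcidin regulators, Smad7 and Il6 were higher. Smad7, the inhibitory SMAD that damps BMP and TGFβ signals and lowers hepcidin, had 107, 33 and 107 reads in DKO, against 137, 123 and 89 in Control from libraries far deeper. It rose to 136, 56.8 and 116 CPM in DKO, against 10.5, 11.2 and 9.25 in Control, the log2 fold change being 3.32 (SE 0.61, adjusted p = 0.00179), with the call kept in all 16 alternatives. Background alone would give 6.08, 4.38 and 10.8 reads in the DKO libraries, and its 23.7, 7.30 and 23.7 reads per exonic kb were above the 95th percentile of the nearly silent genes, 6.72, 5.64 and 11.7. Il6, the cytokine that raises hepcidin in inflammation, had 12, 3 and 16 reads in DKO, while Control had none (adjusted p = 0.000936 in edgeR). With 3 counts as the floor of the Control group and no background subtracted, that is at least 152-fold higher. Background alone would give 3.27, 2.35 and 5.82 reads in the DKO libraries, so this fold is not a lower bound for Il6 itself. Its 4.94, 1.24 and 6.59 reads per exonic kb lay below the same percentile in each DKO library. Atoh8, a transcription factor that BMP signals raise, had 2, 0 and 0 reads in DKO and 386, 167 and 95 in Control, with 3.37, 2.43 and 6.01 from background alone. It fell by 4.35 on the log2 scale (SE 1.18, adjusted p = 0.0145), and the call held in 11 of 16 alternatives. It was lost without Control replicate 1 (adjusted p = 0.0693), without DKO replicate 3 (0.0724), with DKO replicate 2 as the one DKO library (0.0922) and on the abundant-gene scale, where the log2 fold change was -0.61 (0.782), or 0.104 with background also subtracted.

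The other called regulators, all lower, were Smad4, Smad5 and Id1, with adjusted p = 0.0205, 0.0364 and 0.0440 in edgeR. Their reads per exonic kb lay below the 95th percentile of the nearly silent genes in each DKO library. They were 1.08, 0.539 and 1.35 for Smad4, 1.35, 0.27 and 0.674 for Smad5, and 0, 0 and 2.59 for Id1. In the other lists Lcn2, a siderophore-binding protein, and Flvcr2, a transporter, were the genes called higher. Lcn2 had 3, 7 and 62 reads in DKO and 56, 40 and 54 in Control (adjusted p = 0.0496), and Flvcr2 had 21, 5 and 9 in DKO and 31, 25 and 22 in Control (adjusted p = 0.0159). Flvcr2, at 5.99, 1.43 and 2.57 reads per exonic kb, lay below the 95th percentile of the nearly silent genes in each DKO library. Lcn2, at 1.14, 2.67 and 23.6, was above it in DKO replicate 3 alone, where it stood at 67.1 CPM, against 3.82 and 12.04 in DKO replicates 1 and 2. Beside the genes described next, Pcbp1, Pcbp2 and Hmox2 of the transport and storage list and Glrx5, Fbxl5 and Ppox of the sensing and use list were called lower. Among these, Pcbp1 and Pcbp2 alone were above that percentile, and only in DKO replicate 2, at 15.3 and 5.96 reads per exonic kb. Slc46a1, the transporter of folate first described for haem, had 0, 4 and 4 reads in DKO and 709, 660 and 572 in Control, the log2 fold change being -4.01 (SE 0.87, adjusted p = 0.00462). Steap3, the reductase that frees iron from endosomes, had 0, 0 and 2 reads in DKO and 210, 155 and 155 in Control, the log2 fold change being -4.16 (SE 1.07, adjusted p = 0.0113). Blvrb, a biliverdin reductase, had 12, 5 and 18 reads in DKO and 1114, 1274 and 1347 in Control (log2 fold change -2.96, adjusted p = 0.00434). Ncoa4, the receptor that delivers ferritin to the lysosome, had 10, 12 and 11 reads in DKO and 914, 772 and 707 in Control (log2 fold change -2.25, adjusted p = 0.00893). Urod, an enzyme of haem synthesis, had 14, 6 and 19 reads in DKO and 1187, 1145 and 871 in Control (log2 fold change -2.54, adjusted p = 0.00618). For Slc46a1, Steap3 and Ncoa4 the DKO reads were near or below those from background alone, at 4.14, 2.98 and 7.38 for Slc46a1, 7.69, 5.53 and 13.7 for Steap3 and 12.6, 9.07 and 22.4 for Ncoa4. Blvrb and Urod lay below the 95th percentile of the nearly silent genes in each DKO library. They were at 4.31, 1.80 and 6.47 reads per exonic kb for Blvrb and 5.40, 2.32 and 7.33 for Urod. None of the 5 calls held on the abundant-gene scale.

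The genes whose pattern over the 6 libraries was most like that of Hamp were named by the distance between log2 CPM profiles, each centred on its mean, among 7831 genes with at least 10 CPM in Control. They were Ube2d3 (distance 0.523), Gdi2 (0.528), Skp1a (0.684), Atp5j (0.695) and Pdia3 (0.759). Like Hamp, each had no reads in DKO replicate 1, and Hamp stood at 6.87 and 7.11 log2 CPM in DKO replicates 2 and 3, against 8.66 to 8.98 in Control. The nearest, Ube2d3, stood at 6.43 and 6.53 in DKO replicates 2 and 3 and at 8.38 to 8.57 in Control. None of them was in the iron lists.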

How the data were processed

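Gene counts of 6 mouse liver libraries were used, 3 DKO and 3 Control. The authors deposited raw read counts for Ensembl genes, and the submitters' processing notes name STAR, HTSeq and mm10. No source used here gives versions, strand setting, counting mode or annotation. Beside 43346 gene IDs, 5 summary rows without a gene held 95.26% to 97.32% of reads in DKO and 65.07% to 66.7% in Control; these rows stayed out of library sizes and tests. Symbols came from a gene name reference (42462 IDs matched), and positions and lengths from GENCODE M21 on mm10. Hjv is listed under its older symbol Hfe2.

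The main test was edgeR 4.0.16 (R 4.3.3): robust quasi-likelihood fit, TMM, filterByExpr by group, no covariates, Benjamini-Hochberg adjusted p over all tested genes under 0.05, two-sided. The fit was tested on data simulated from Control means and Control spread at these library sizes, with no shift in make-up between groups. The coefficient of biological variation was 18.8% in Control and 63.9% over all libraries. The simulation therefore does not show how the fit behaves under the spread and scaling of the DKO libraries. CPM are scaled by TMM unless called unscaled. Length-scaled levels divide reads by the length of the APPRIS principal transcript and scale each library to the same total (TPM). Expected reads in a library were the Control mean times the library's median ratio over 160 abundant nuclear protein-coding genes (over 30000 Control counts, the 10 genes left out), plus background. Background was the reads per exonic kb over the 8600 coding genes whose Control counts sum to 10 or less, times exonic length. Alternatives used DESeq2 1.42.0, limma 3.58.1 (voom), other scalings and filters, a replicate block, and each library left out in turn. Scaling on abundant genes with background subtracted, and DKO replicate 2 as the one DKO library, were added after seeing the data. The genes, lists and tests were chosen with earlier results of these data known. Named genes were the 10 genes, Ctnnb1, Jup, Alb, Hamp2, up to 8 called genes of the other iron lists by smallest adjusted p, and the 5 genes nearest to Hamp by distance of centred log2 CPM (prior count 2). Promoters came from RefSeq (GRCm38.p6) and elements from GENCODE M21 transcripts. Motifs, and the per-library ratios, carry no test. Counting error is covered by the limit of 3 reads that a count of 0 allows, and nothing else.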

Additional observations from a re-analysis of the deposited data

How the results depend on the processing

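Depth limits these results: the DKO libraries held 309731 to 1491237 gene reads, and several genes with few reads were near those expected from background. That expectation assumes that genes nearly silent in Control stay so in DKO. The abundant-gene scale assumes that abundant liver genes keep their levels. Neither assumption was tested. Of 168 values of the 10 genes under the alternatives, 118 kept their direction and side of the threshold, 29 passed where the main value did not, and 21 turned positive. On the abundant-gene scale the log2 fold changes were 0.89 for Hamp, 2.65 for Trf, 2.03 for Tfrc, 1.44 for Fth1, 1.5 for Ftl1, 2.37 for Hfe, 1.23 for Slc40a1, 2.19 for Cp, 3.80 for Slc39a14, 0.93 for Ctnnb1, 3.96 for Jup, 0.67 for Hamp2, 2.88 for Blvrb, 3.35 for Urod and 3.22 for Ncoa4. With background also subtracted, a setting chosen after seeing the data, they were 1.00 for Hamp, 3.15 for Trf, 0.59 for Tfrc, 1.58 for Fth1, 1.98 for Ftl1, 0.52 for Slc40a1, 2.45 for Cp, 4.05 for Slc39a14, 0.81 for Ctnnb1, 0.007 for Alb, 0.58 for Hamp2, 2.94 for Blvrb and 3.70 for Urod. Testing genes of at least 50 CPM in Control, which left Hfe and Tfrc out, gave 0.47 for Trf, 0.16 for Slc40a1, 0.72 for Slc39a14, 0.18 for Urod and 0.19 for Ncoa4. With DKO replicate 2 as the one DKO library, also chosen after seeing the data and assuming that it varies like the Control libraries, Tfrc was at 0.17. Why these values turned was not tested.

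The 1 gene of the set called lower became 2 with DESeq2's size factors, 8 with DESeq2 and 5 with no filter. It became 0 with at least 50 CPM in Control and 0 on the abundant-gene scale, and ranged from 1 to 6 when 1 library was left out. At least 50 CPM left no call in edgeR, with 412 genes higher and 111 lower, but 0 of the set, at an unadjusted p under 0.05; the abundant-gene scale also left 0 of the set there. None was called higher under any setting run (0 in edgeR, where none had an unadjusted p under 0.05 in that direction, and 0 in DESeq2 and limma). Genes called higher over all genes, 4871 in the main test, numbered 8835 with DESeq2, 11477 with no filter, 0 with at least 50 CPM in Control, 9779 on the abundant-gene scale and 2395 with background subtracted. Genes called lower, 1992 in the main test, numbered 3577 with DESeq2's size factors, 4138 with DESeq2, 4650 with no filter, 0 with at least 50 CPM in Control, 84 on the abundant-gene scale, 970 with background also subtracted, 4374 with DKO replicate 2 as the one DKO library, and 567 to 4492 when 1 library was left out. The deviations of same-numbered libraries had correlations of 0.121, 0.073 and -0.02 over 15561 genes. The DKO libraries are shallow and differ in make-up, so low values cannot exclude a pairing or a shared batch. The labels give nothing but the shared number. With the replicate block 2 genes of the set were called lower, Hfe and Tfr2 (log2 fold change -4.70, adjusted p = 0.0377 in edgeR), and over all genes 4143 were higher and 2179 lower.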
